A study of Homo sapiens with 64 samples.

Results

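The genes described here are 10 targets of the transcription factor NF-κB, taken by their symbols from the 54127 genes counted in each of 64 RNA sequencing libraries. They are the chemokines CXCL1, CXCL2, CXCL3, CXCL8 and CCL20, the inhibitors TNFAIP3 and NFKBIA, the caspase and signaling regulator BIRC3, the adhesion molecule ICAM1 and the subunit RELB. All 10 were found in the files. Spheroids of 6 colorectal cancer (CRC) cell lines were grown without adherence or serum in the presence of bFGF and EGF after staining with CFSE, a dye that dividing cells dilute. On day 6, cells that had kept the dye (label-retaining cells, LRCs) and the remaining cells (non-LRCs) were sorted by FACS, with 4 replicates of each population from each line. The lines belong to the colon cancer subtypes CCS1 (HT55, SW948), CCS2 (RKO, SW48) and CCS3 (DLD1, HCT15). These 48 sorted libraries were accompanied by 16 controls labeled as DLD1 and not split by dye retention. The controls were CFSE-labeled or unlabeled (DMSO in the labels) and were collected on day 1 or on a later day, given as day 5 in the sample labels and as day 6 in the description of the series, with 4 replicates each. Every group is 1 established line, DLD1 and HCT15 are known to derive from the same tumor, and nothing in the labels states whether replicates were separate cultures, so that p-values measure the spread between these libraries only.

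NF-κB is a family of dimers that IκB proteins hold in the cytoplasm. When a receptor for TNF, IL-1 or a microbial product activates the IκB kinases, IκB is degraded and the freed dimers bind κB sites and start transcription. In intestinal epithelium the pathway is known for recruiting immune cells through chemokines and for protecting cells from death, and its targets include its own inhibitors, which close a feedback loop.

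The chemokine genes CXCL1 (chr4, 74735110 to 74737025, plus strand), CXCL2 (chr4, 74962757 to 74964913, minus strand), CXCL3 (chr4, 74902306 to 74904524, minus strand) and CXCL8 (chr4, 74606236 to 74609433, plus strand) lie in 1 cluster on GRCh37. CCL20 lies on chr2 (228670455 to 228682280), TNFAIP3 on chr6 (138188351 to 138204451), NFKBIA on chr14 (35870285 to 35873955, minus strand), BIRC3 on chr11 (102188215 to 102210134), and ICAM1 (10381769 to 10397291) and RELB (45504719 to 45541450) on chr19. Promoters from RefSeq, of 250 bases before and 50 after the start of a gene, were given for 9 of the 10 members. They were searched on both strands for the κB consensus, which was found in 7 of the 9 and in 10.8% of all 27305 promoters of that length. The sequence GGAATTTCC, chosen after the promoters had been read and overlapping the consensus in CXCL1, CXCL2, CXCL3 and NFKBIA, was found in 6 of the 9 and in 0.472% of all promoters.

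The bases upstream of 6 members are printed to show how their κB matches are placed. CXCL1 and CXCL2 were chosen because they passed no main test between LRCs and non-LRCs, and CXCL8, TNFAIP3, BIRC3 and ICAM1 because they were higher in LRCs. In 1 alternative, a fit of all 48 sorted samples, CXCL2 was called lower in RKO-LRCs. Each stretch is from RefSeq (table of build GRCh38.p14), was located on GRCh37 by an exact match, is written 5′ to 3′ on the strand of the gene and ends before the first annotated base of the gene. Capitals mark matches of the κB consensus or of GGAATTTCC on either strand. The stretches are chr4:74734860-74735109 (plus), chr4:74964914-74965162 (minus), chr4:74606036-74606235 (plus), chr6:138188146-138188350 (plus), chr11:102187965-102188214 (plus) and chr19:10381546-10381768 (plus).
CXCL1: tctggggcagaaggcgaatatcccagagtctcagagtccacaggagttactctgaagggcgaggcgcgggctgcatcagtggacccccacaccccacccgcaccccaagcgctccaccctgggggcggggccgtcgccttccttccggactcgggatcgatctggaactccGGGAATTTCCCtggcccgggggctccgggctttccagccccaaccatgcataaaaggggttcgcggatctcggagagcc
CXCL2: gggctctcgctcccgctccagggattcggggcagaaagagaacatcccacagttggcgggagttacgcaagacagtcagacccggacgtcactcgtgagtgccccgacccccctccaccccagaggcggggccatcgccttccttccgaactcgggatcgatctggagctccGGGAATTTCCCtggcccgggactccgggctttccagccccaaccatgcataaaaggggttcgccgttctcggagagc
CXCL8: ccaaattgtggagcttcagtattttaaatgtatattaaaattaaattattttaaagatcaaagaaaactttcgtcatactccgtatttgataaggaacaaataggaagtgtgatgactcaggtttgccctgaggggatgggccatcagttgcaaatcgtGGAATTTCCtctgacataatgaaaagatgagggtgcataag
TNFAIP3: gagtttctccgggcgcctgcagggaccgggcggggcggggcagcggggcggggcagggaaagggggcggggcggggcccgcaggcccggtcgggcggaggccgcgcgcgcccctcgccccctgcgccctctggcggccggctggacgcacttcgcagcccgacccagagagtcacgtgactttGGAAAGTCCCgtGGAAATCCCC
BIRC3: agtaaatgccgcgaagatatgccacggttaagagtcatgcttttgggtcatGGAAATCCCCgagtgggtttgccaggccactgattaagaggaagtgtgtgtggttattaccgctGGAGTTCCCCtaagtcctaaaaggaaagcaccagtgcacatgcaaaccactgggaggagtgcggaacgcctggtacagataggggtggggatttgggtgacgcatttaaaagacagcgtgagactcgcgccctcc
ICAM1: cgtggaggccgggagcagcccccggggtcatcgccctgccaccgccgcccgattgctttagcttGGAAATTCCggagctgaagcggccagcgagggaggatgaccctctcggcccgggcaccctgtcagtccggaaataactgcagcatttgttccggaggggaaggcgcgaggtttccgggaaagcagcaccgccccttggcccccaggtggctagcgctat
Positions are relative to the transcription start given by RefSeq, taken as 0. This start lies inside the annotated gene for CXCL2, CXCL3, CXCL8, CCL20, TNFAIP3 and ICAM1. The κB match began at -79 in CXCL1, -78 in CXCL2 and -79 in CXCL3, and GGAATTTCC began at -91 in CXCL8. TNFAIP3 had a pair of matches, at -67 and -55, and BIRC3 had matches at -199 and -135, all on the opposite strand. The promoters of CXCL1 and CXCL3 were identical at 82.5% of the aligned bases, and CXCL8 matched the other chemokines of the cluster at 45.2% to 47.9%. CXCL8 was the only member promoter with the AP-1 letters TGANTCA (on either strand), at -137, which 7.76% of all promoters hold. A match describes letters in this window and does not show that a factor was bound.

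A library had 12237225 to 20913455 reads on genes (median 15063858). Over all 64 libraries the members had from 499 counts (CXCL1) to 59846 counts (ICAM1), so the values of CXCL1, CXCL2, CXCL3, CXCL8 and CCL20 rest on few counts in most groups. Levels are given as CPM (counts of a gene relative to the size of its library), scaled between libraries by the TMM method. In bulk libraries, fewer cells that express a gene and less RNA of it per cell cannot be told apart. All 8 epithelial markers were detected, with a sum of 219 to 334 CPM in the RKO groups and 2702 to 17426 CPM in the groups of the other sorted lines. The 7 leukocyte markers summed to 0 to 22.5 CPM in a sorted library and to 6.48 to 21.3 CPM in a control, and CD3E was the 1 marker at 0 in all libraries. By the correlation of log2 CPM over 11748 genes, each of the 16 controls labeled DLD1 was more like the sorted HCT15 non-LRCs (r from 0.888 to 0.988) than the sorted DLD1 non-LRCs (0.833 to 0.921). Of 323 genes with non-LRC means of DLD1 and HCT15 that differed by at least 2 on the log2 scale, 79.3% to 97.8% were closer to HCT15 in each control library, against 1.55% to 4.64% in the DLD1-LRCs. Which of these libraries, if any, carry the label of another line cannot be told from the counts. By the same measure, 9 of the 64 libraries were more like another group than like their own, 2 of them by more than 0.01. The library labeled replicate 4 of the SW948-LRCs had an r of 0.997 with SW948 non-LRCs and 0.987 with the other SW948-LRCs. The library labeled replicate 4 of the unlabeled day 1 controls had an r of 0.990 with the later unlabeled controls and 0.953 with the other unlabeled day 1 controls. Results that rest on these 2 doubted libraries are given with and without them. Each was doubted for resembling a group it is compared with, so leaving it out by itself favors larger differences from that group.

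Across the 6 lines, 5 of the 10 NF-κB targets were higher in LRCs and none was lower. They were CXCL8, TNFAIP3, BIRC3, ICAM1 and RELB, and the largest rise was in CXCL8, which encodes the neutrophil chemoattractant interleukin-8. All 10 members passed the filter on low counts, and their median log2 fold change was 0.30, against 0.01 for all genes. In this comparison, 22.9% of 16603 genes passed an adjusted p-value of 0.05 in either direction (edgeR's quasi-likelihood test with Benjamini-Hochberg adjustment), 12.2% as higher and 10.7% as lower. DESeq2 also called 5 members (and 3965 of 16603 genes), and without the doubted library of the SW948-LRCs the same 5 were called (24.4% of genes). In single lines, the number of members called higher was 4 of 6 tested in RKO, where 20.4% of all genes were called higher, 2 of 8 in DLD1 (6.67% of genes) and 2 of 6 in HCT15 (0.728% of genes). Of those in RKO, CXCL8 passed the filter on low counts only through the LRCs. No member was called in SW948 (10 tested, 0% of genes called higher), HT55 (8 tested, 0%) or SW48 (5 tested, 0.72%). In these lines 6, 2 and 2 members had an unadjusted p under 0.05, as had 2350 of 13674, 1005 of 13391 and 1728 of 13196 genes. DESeq2 called 1, 0 and 0 members there, and 245, 37 and 360 genes in either direction. Without the doubted library of the SW948-LRCs, 5 members were called higher in SW948, against 9.32% of all genes. They were CXCL8, TNFAIP3, BIRC3, ICAM1 and RELB. That library was left out because it resembled the SW948 non-LRCs, which by itself favors larger differences between the populations. Calls in either direction over all genes in SW948 rose from 0 to 1956 without it.

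The sorted samples also differed in other ways between populations. Reads on mitochondrial genes made up 7.01% to 10.5% of counts in RKO-LRCs and 4.47% to 6.57% in RKO non-LRCs, and 13.8% to 14.2% in SW48-LRCs and 9.66% to 11.3% in SW48 non-LRCs. The summed leukocyte markers were at 2.85 to 4.09 CPM in DLD1-LRCs and 1.24 to 1.83 CPM in DLD1 non-LRCs, and at 0.715 to 1.54 CPM in SW948-LRCs and 0.507 to 0.643 CPM in SW948 non-LRCs, and the populations of the other 4 lines overlapped. In DLD1 most of the difference lay in ITGB2 (means of 1.03 CPM for non-LRCs, 2.15 for LRCs), CD14 (0.302, 0.628) and CSF1R (0.0659, 0.473). In SW948 most of it lay in CD14 (0.181, 0.52). PTPRC had 1 count in DLD1 non-LRCs and 0 in DLD1-LRCs, and 0 in both SW948 populations. In SW48 PTPRC made up most of the sum (15.6 for non-LRCs, 14.3 for LRCs). The sums thus rest on different markers in different lines, and whether leukocytes were present was not tested. The part of these reads and markers in the results was not tested.

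Of the 5 chemokines, CXCL8 was the only one that passed the test across the lines. In RKO, replicates 1 to 4 of the non-LRCs had 0.227, 0.195, 0.158 and 0.375 CPM of CXCL8, and those of the LRCs had 3.3, 3.04, 1.4 and 2.54 CPM. All 4 RKO-LRCs lay above all 4 non-LRCs, with a log2 fold change of 3.34 ± 0.38 (SE, n = 4 per group, adjusted p = 8.37e-06). In HCT15 the non-LRCs had 1.1, 2.02, 1.48 and 1.3 CPM and the LRCs 4.5, 4.72, 2.91 and 2.79 CPM, again without overlap (1.34 ± 0.26, adjusted p = 0.046). This call in HCT15 was lost when any 1 replicate number was left out, with adjusted p-values of 0.0994 to 0.335, and CXCL8 in RKO fell under the count filter in the same settings.

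In the other lines CXCL8 was less far apart. SW948-LRCs had 2.7, 1.89, 1.73 and 0.868 CPM and non-LRCs 0.761, 0.904, 0.9 and 0.955 CPM, so that the populations overlapped through replicate 4 of the LRCs alone (1.01 ± 0.32, adjusted p = 0.176). Without that library the log2 fold change was 1.26 (adjusted p = 0.00516). DLD1-LRCs had 1.93, 0.99, 1.15 and 0.873 CPM and non-LRCs 0.923, 0.92, 0.784 and 1.24 CPM, which overlapped (0.37 ± 0.29, adjusted p = 0.428). HT55 and SW48 had at most 0.376 CPM of CXCL8 in any library and were under the filter. Across the lines LRCs were higher in 19 of 24 same-numbered pairs (1.32 ± 0.21, adjusted p = 6.37e-06).

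CCL20 encodes the ligand of the receptor CCR6, through which mucosal lymphocytes and dendritic cells are drawn to epithelium. It was abundant only in the CCS1 lines. HT55-LRCs had 7.24, 3.45, 7.26 and 7.16 CPM and non-LRCs 5.45, 2.71, 4.18 and 4.86 CPM. SW948-LRCs had 5.68, 5.99, 6.1 and 4.95 CPM and non-LRCs 3.55, 4.97, 3.99 and 4.9 CPM. In both lines LRCs were higher in 4 of 4 same-numbered pairs while the groups overlapped, and neither line passed the test (log2 fold changes of 0.55, adjusted p = 0.694, and 0.39, adjusted p = 0.238). Across the lines CCL20 was at 0.38 ± 0.16 with an adjusted p of 0.0745, which became 0.0449 without replicate 4 of every group. HCT15 had 0.194 to 0.682 CPM, and DLD1 had at most 0.233 CPM in any library.

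CXCL1, CXCL2 and CXCL3, ligands of the neutrophil receptor CXCR2, did not pass the test across the lines or in a single line where they were above the filter. Their log2 fold changes across the lines were 0.31 ± 0.28, -0.15 ± 0.15 and 0.23 ± 0.18 (adjusted p = 0.462, 0.524 and 0.392). SW948 was the line in which they could be measured best. There, CXCL3 had 4.69, 3.69, 4.44 and 4.9 CPM in non-LRCs and 3.04, 3.13, 3.45 and 4.24 CPM in LRCs. It was lower in LRCs in 4 of 4 pairs, with overlapping groups (-0.34 ± 0.17, adjusted p = 0.319). In SW48, where CXCL3 was under the filter, non-LRCs had 0.212, 0.338, 0.246 and 0 CPM and LRCs 0.554, 0.818, 0.54 and 0.351 CPM, which did not overlap. CXCL2 in RKO, also under the filter, had 0.606, 0.39, 0.946 and 0.811 CPM in non-LRCs and 0.174, 0.175, 0.33 and 0.541 CPM in LRCs, lower in 4 of 4 pairs with overlap. When all 48 samples shared 1 fit, CXCL2 in RKO was tested and called lower (-1.10, adjusted p = 0.037). Up to 13.4% of the 50-base windows in the transcripts of CXCL1, CXCL2 or CXCL3 are shared with another of the 3 genes. Reads that map to more than 1 place are held in HTSeq's summary lines, apart from the counts of genes. The counts of these 3 genes can thus be too low.

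**Figure D1:**
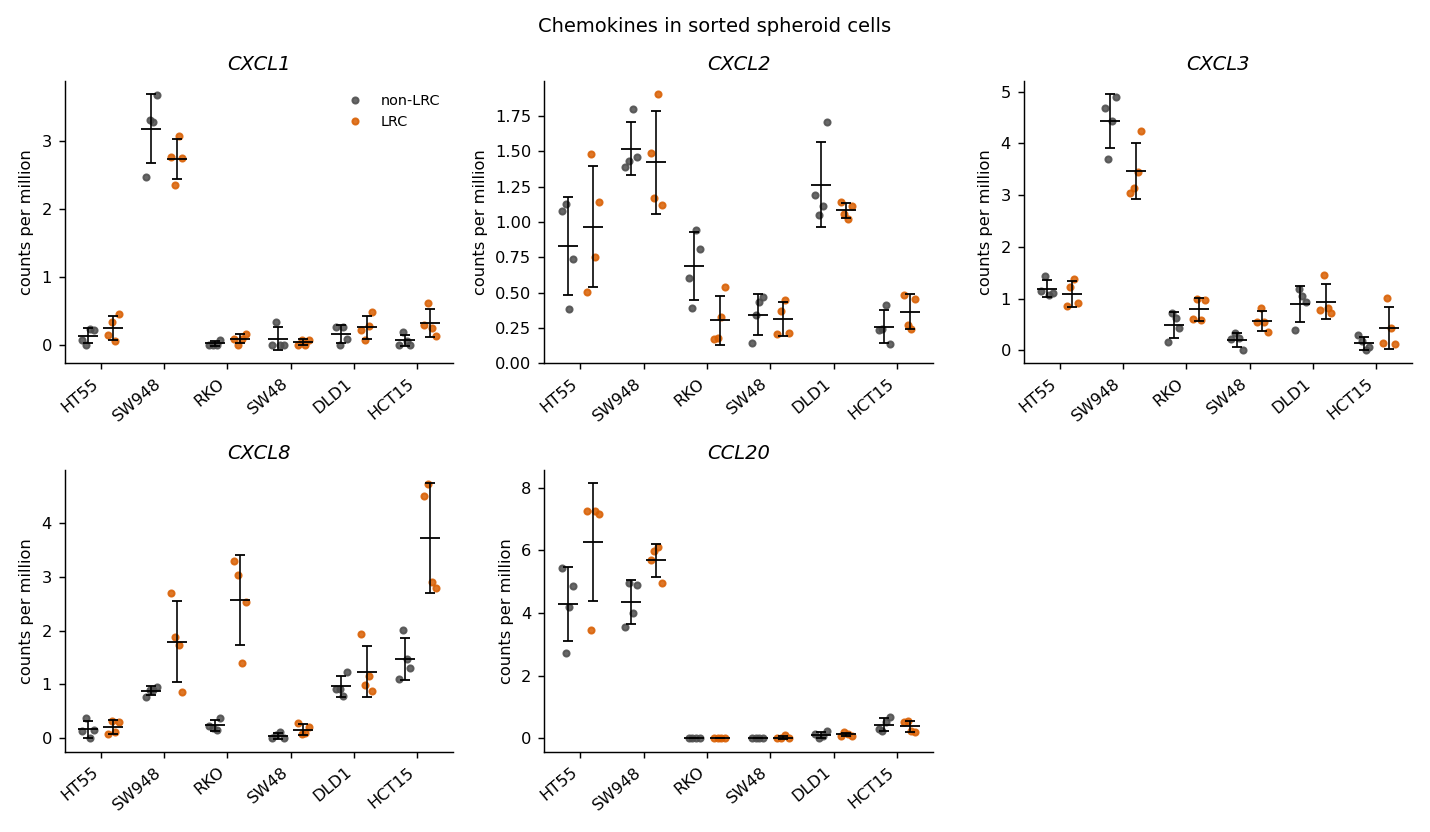
CPM of the 5 chemokines in the sorted libraries by cell line, with non-LRCs in gray and LRCs in orange, each point 1 library and each bar the mean ± SD of 4 replicates. CXCL8 was at 1.4 to 3.3 CPM in the 4 RKO-LRCs and at most 0.375 CPM in the RKO non-LRCs, while CCL20 was high in HT55 and SW948 and at 0 in RKO.

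Of the pair of inhibitors, TNFAIP3 was higher in LRCs and NFKBIA did not pass the test across the lines. TNFAIP3 encodes A20, a ubiquitin-editing enzyme that shuts off signaling upstream of the IκB kinases. HCT15-LRCs had 12.2, 9.44, 8.44 and 7.06 CPM and HCT15 non-LRCs 4.05, 5.27, 4.98 and 4.91 CPM. The groups did not overlap (log2 fold change of 0.97 ± 0.18, adjusted p = 0.0447), but the call was lost without any 1 replicate number (adjusted p = 0.0675 to 0.316). RKO-LRCs had 4.17, 3.27, 3.3 and 3.03 CPM and RKO non-LRCs 2.35, 2.66, 1.89 and 1.94 CPM. They did not overlap either (0.60 ± 0.20, adjusted p = 0.0229), and the call was lost without replicate 1 (0.0856), 3 (0.0711) or 4 (0.0725).

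SW948 had the same order for TNFAIP3, with 15.5, 14.0, 17.4 and 8.83 CPM in LRCs and 7.93, 6.25, 8.04 and 6.81 CPM in non-LRCs. The lowest LRC, replicate 4, was still above the highest non-LRC (0.94 ± 0.19, adjusted p = 0.133), and without it the log2 fold change was 1.12 (adjusted p = 9.01e-05). SW48-LRCs had 8.72, 13.4, 7.66 and 5.83 CPM and non-LRCs 4.87, 5.4, 5.97 and 3.03 CPM. HT55-LRCs had 18.8, 18.3, 25.8 and 16 CPM and non-LRCs 12.8, 16.5, 14.6 and 11.8 CPM. In both lines LRCs were higher in 4 of 4 pairs and the groups overlapped by 1 library (0.88 ± 0.28, adjusted p = 0.213, and 0.50 ± 0.16, adjusted p = 0.57). DLD1-LRCs had 7.99, 8.84, 7.11 and 5.56 CPM and non-LRCs 6.06, 6.51, 5.42 and 6.61 CPM (0.28, adjusted p = 0.236). Over the 6 lines, TNFAIP3 was higher in LRCs in 23 of 24 pairs (0.69 ± 0.09, adjusted p = 2.89e-07), and the pair that was not was replicate 4 of DLD1. The antisense gene WAKMAR2, which lies across TNFAIP3 and whose reads cannot be separated from it without strand, had 132 counts in all 64 libraries against 8409 of TNFAIP3.

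NFKBIA encodes IκBα, which binds NF-κB dimers and returns them to the cytoplasm. DLD1-LRCs had 61.3, 60.3, 63 and 58.6 CPM and DLD1 non-LRCs 53.1, 49.4, 52.5 and 53.1 CPM. These did not overlap (0.24 ± 0.05, adjusted p = 0.0108), and the call was lost without replicate 1 (0.0667) or 3 (0.0751) and when all 48 samples shared 1 estimate of the spread (0.252). HT55-LRCs had 44.1, 41.0, 46.2 and 44.8 CPM and non-LRCs 28.6, 37.4, 40.7 and 27.7 CPM, which did not overlap (0.39 ± 0.12, adjusted p = 0.56). In RKO, SW48 and HCT15 the log2 fold changes of NFKBIA were -0.13, -0.04 and -0.01. Over the 6 lines it was at 0.10 ± 0.05, with LRCs higher in 16 of 24 pairs (adjusted p = 0.136).

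BIRC3 and ICAM1 were higher in LRCs across the lines, in BIRC3 with 21 of 24 pairs (0.47 ± 0.10, adjusted p = 0.000322) and in ICAM1 with 17 of 24 pairs (0.30 ± 0.07, adjusted p = 0.00216). BIRC3 encodes cIAP2, a ubiquitin ligase that holds back cell death at the TNF receptor. RKO-LRCs had 12.4, 9.64, 11.1 and 14.7 CPM of BIRC3 and RKO non-LRCs 5.91, 7.73, 7.57 and 6.05 CPM. HCT15-LRCs had 20.4, 20, 17.4 and 17.9 CPM and HCT15 non-LRCs 9.95, 15.5, 10.1 and 13.0 CPM. In neither line did the groups overlap, and RKO passed the test (0.79 ± 0.15, adjusted p = 0.000611) while HCT15 did not (0.65 ± 0.15, adjusted p = 0.0701). SW948-LRCs, at 35.8, 39.2, 37.4 and 27.9 CPM, overlapped the non-LRCs, at 25.4, 22.6, 30.4 and 27.2 CPM, through replicate 4 alone (0.42 ± 0.12, adjusted p = 0.159, and 0.52 without it, adjusted p = 0.00441). In SW48 the log2 fold change was 0.98 ± 0.35 (adjusted p = 0.273), and in HT55 and DLD1 it was 0.03 and 0.12.

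ICAM1, the ligand through which leukocyte integrins hold on to other cells, had log2 fold changes of both signs. RKO-LRCs had 166, 120, 112 and 135 CPM and RKO non-LRCs 91.8, 91.4, 81.5 and 92.1 CPM. DLD1-LRCs had 41.8, 46.5, 37.2 and 37.7 CPM and DLD1 non-LRCs 30.1, 32.0, 29.7 and 27.8 CPM. Both lines had no overlap and passed the test (0.55 ± 0.10, adjusted p = 0.000456, and 0.46 ± 0.08, adjusted p = 0.00529). HCT15-LRCs, at 158, 154, 150 and 131 CPM, were all above HCT15 non-LRCs, at 127, 120, 107 and 102 CPM (0.39 ± 0.09, adjusted p = 0.0832). In SW48 the LRCs, at 12.2, 9.67, 9.19 and 9.91 CPM, were below the same-numbered non-LRCs, at 15.8, 12.4, 12.2 and 10.5 CPM, in 4 of 4 pairs, with overlap (-0.31 ± 0.15, adjusted p = 0.422). SW948 had only 1.38 to 3.33 CPM in LRCs and 1.01 to 1.74 CPM in non-LRCs (0.84 ± 0.29, adjusted p = 0.195, and 1.08 without replicate 4 of the LRCs, adjusted p = 0.00581). The ICAM1 call across the lines was lost without RKO (0.23, adjusted p = 0.0538). Of the 50-base windows of its transcripts, 22.7% also occur in other genes, so its counts carry an uncertainty from such reads.

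RELB, the NF-κB subunit that pairs with p52 in the noncanonical pathway, was higher in LRCs in 20 of 24 pairs (0.27 ± 0.08, adjusted p = 0.00825). The call was lost without replicate 1 (0.24, adjusted p = 0.0695) or 3 (0.24, adjusted p = 0.087). HCT15-LRCs had 30.0, 25.8, 22.6 and 18.6 CPM and HCT15 non-LRCs 14.8, 16.6, 11.6 and 10.3 CPM, with no overlap (0.87 ± 0.18, adjusted p = 0.0507). DLD1-LRCs had 20.4, 19.2, 13.6 and 12.1 CPM and DLD1 non-LRCs 13.6, 16.4, 11.6 and 10.9 CPM. Replicates 1 and 2 were above replicates 3 and 4 in each of these 4 groups, and LRCs were higher in every pair. In RKO and SW48 the log2 fold changes were 0.05 and -0.01.

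**Figure D2:**
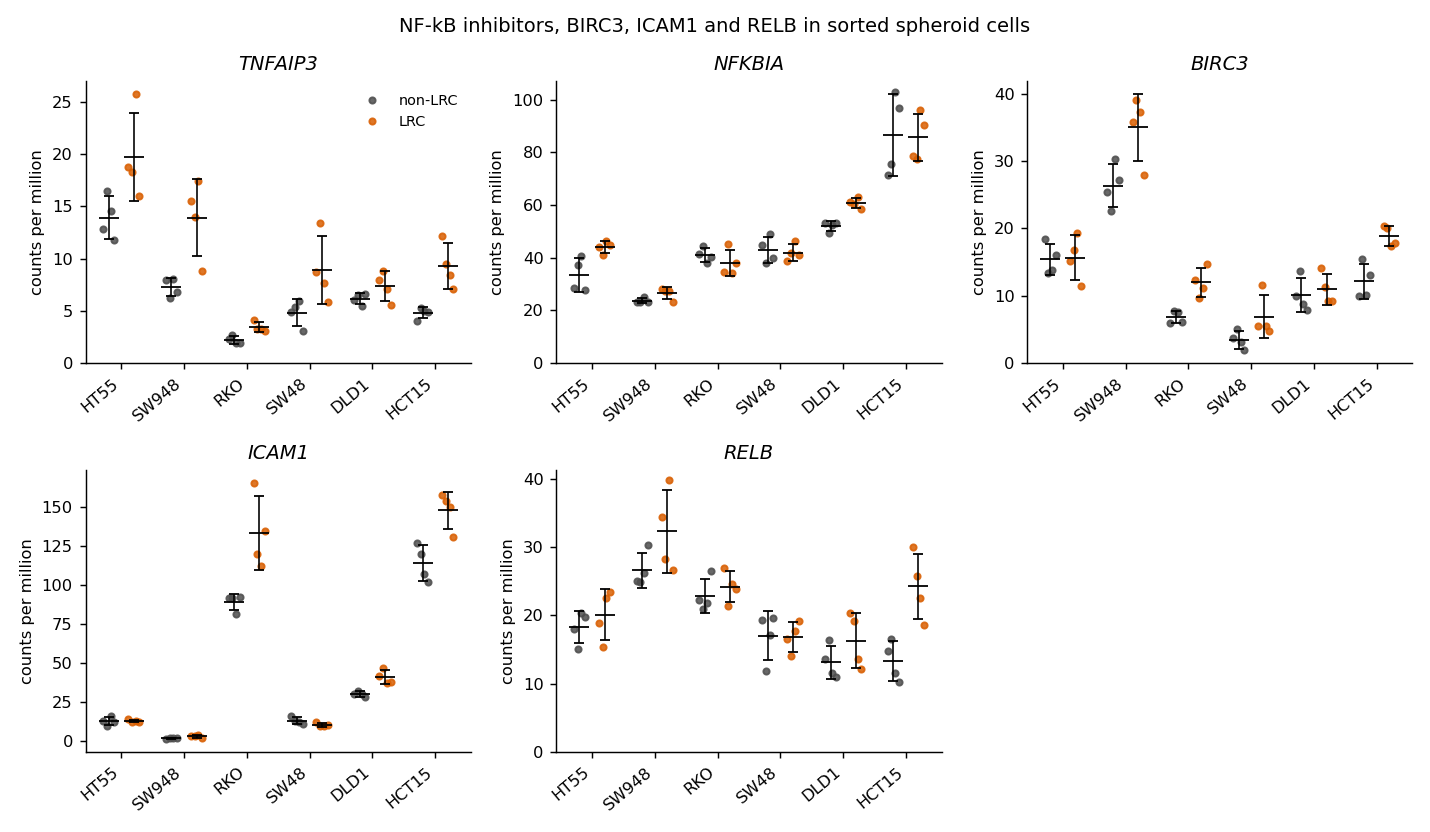
CPM of TNFAIP3, NFKBIA, BIRC3, ICAM1 and RELB in the sorted libraries by cell line, with non-LRCs in gray and LRCs in orange, each point 1 library and each bar the mean ± SD of 4 replicates. TNFAIP3 was higher in LRCs in 23 of 24 same-numbered pairs, and the mean of ICAM1 in non-LRCs ranged from 1.5 CPM in SW948 to 114 CPM in HCT15.

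Groups without overlap and with LRCs higher were 5 members in HCT15 (CXCL8, TNFAIP3, BIRC3, ICAM1 and RELB, against 5.22% of all genes tested there), 4 in RKO (19.2% of genes), 2 in DLD1 (8.86%), 1 in HT55 (NFKBIA, 1.79%) and 1 in SW948 (TNFAIP3, 2.69%). In SW48, where 4.82% of the genes tested did not overlap in that direction, the 1 such member was CXCL3, which was under the filter. No member had LRCs lower without overlap in any line.

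Same-numbered LRC and non-LRC libraries deviated together from their group means in HT55, SW48, DLD1 and HCT15, with every pair's correlation over 0.1, and not in SW948 or RKO. With the replicate number as a block, HCT15 had 5 members called higher in place of 2 (against 11.3% of genes). The added members were BIRC3 (adjusted p = 0.000504), ICAM1 (0.000247) and RELB (9.26e-06). Under the block SW48 had 2 in place of 0 (5.36% of genes), which were TNFAIP3 (0.87, adjusted p = 0.0101) and BIRC3 (0.96, adjusted p = 0.00758). DLD1 had 3 in place of 2 (17.1% of genes), with RELB added (0.32, adjusted p = 0.0088), and HT55 stayed at 0. Without the block, 2 members in HT55 had an unadjusted p under 0.05 (1005 of 13391 genes), and DESeq2 called 0 (37 genes).

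Whether the difference between LRCs and non-LRCs itself varied among the lines was tested with interaction terms. It did for CXCL8 (adjusted p = 0.0032) and ICAM1 (adjusted p = 0.00458), that is for 2 of 10 members, against 14.3% of all genes. In CXCL8 the largest log2 fold change was that of RKO and the smallest among the tested lines that of DLD1, and in ICAM1 values ran from 0.84 in SW948 to -0.31 in SW48. The CXCL8 result was lost without replicate 2 (0.0545) and the ICAM1 result without replicate 1 (0.095) or 3 (0.0826). For TNFAIP3 the test did not pass (adjusted p = 0.292). The replicate number was also used as a block in all 6 lines, although same-numbered libraries deviated together in only 4 of them. With this block 6 members passed, against 33.6% of all genes. The added members were CXCL3 (adjusted p = 0.0211), NFKBIA (0.00491), BIRC3 (0.0115) and RELB (0.000307).

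**Figure D3:**
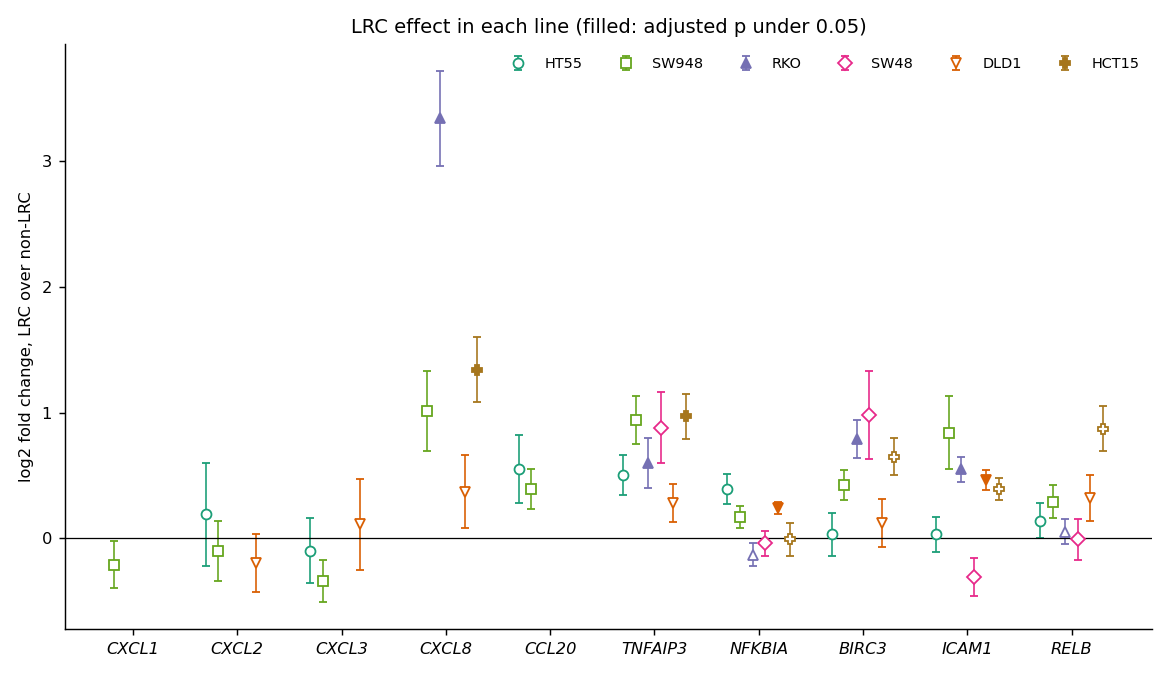
Log2 fold change of LRCs over non-LRCs ± SE for each tested member in each line, filled where the adjusted p-value of edgeR's quasi-likelihood test was under 0.05. CXCL8 in RKO, at 3.34, was the largest value but passed the filter there only through the LRCs, and TNFAIP3 was above 0 in all 6 lines.

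All 10 members differed in level among the non-LRCs of the 6 lines (adjusted p from 1.88e-22 for ICAM1 to 2.26e-06 for RELB), as did 98.3% of all genes. Between single pairs of lines, from 49.4% of genes (DLD1 and HCT15) to 78.3% (HT55 and RKO) passed the test.

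SW948 had the highest mean of CXCL1, CXCL2, CXCL3 and CCL20, and it differed from the next line beyond their spread in CXCL1 and CXCL3 only. CXCL1 had 2.47, 3.31, 3.28 and 3.69 CPM in SW948 non-LRCs, and the next line, DLD1, had 0.264, 0, 0.261 and 0.0778 CPM. The means were 21.2-fold apart (log2 difference of 4.30 ± 0.54, adjusted p = 1.12e-07), and no neighbors among the lines below SW948 differed beyond their spread. CXCL3 had a mean of 4.43 CPM in SW948, above 1.19 CPM in HT55 (adjusted p = 1.2e-05), and no neighbors further down, from DLD1 (0.889) to RKO (0.483), SW48 (0.199) and HCT15 (0.135), differed beyond their spread. CXCL2 followed the order SW948 (1.52), DLD1 (1.27), HT55 (0.831), RKO (0.688), SW48 (0.344) and HCT15 (0.257), in which RKO and SW48 were the only neighbors that differed (adjusted p = 0.032).

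CXCL8 had another order among non-LRCs. HCT15 (1.48 CPM), DLD1 (0.968) and SW948 (0.88) did not differ beyond their spread as neighbors and were above RKO (0.239), HT55 (0.167) and SW48 (0.0476), with SW948 and RKO separated by an adjusted p of 0.000385. CCL20 was at 4.35 CPM in SW948 and 4.3 CPM in HT55, which did not differ beyond their spread. Both were above HCT15 at 0.438 CPM (9.83-fold for HT55, adjusted p = 3.01e-08). In RKO and SW48 non-LRCs no read of CCL20 was counted, and against the 3 counts over 4 libraries that a count of 0 allows, HT55 and SW948 were at least 82.2-fold higher. RKO-LRCs had no count of CCL20 either, and SW48-LRCs had 1.

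Among the inhibitors, TNFAIP3 was highest in HT55 (13.9 ± 2.06 CPM, SD, n = 4) and lowest in RKO (2.21 ± 0.365). Each of these stood apart from its neighbor (adjusted p = 5.29e-06 and 7.12e-06), and the other lines, from SW948 (7.26) to DLD1 (6.15), SW48 (4.82) and HCT15 (4.8), did not differ beyond their spread as neighbors. NFKBIA went from HCT15 (86.6) to DLD1 (52), SW48 (42.9), RKO (40.9), HT55 (33.6) and SW948 (23.7). HCT15 and DLD1, DLD1 and SW48, and HT55 and SW948 differed, with adjusted p-values of 8.65e-06, 0.027 and 0.000356. SW948 was thus highest for CXCL1 and CXCL3 and lowest for NFKBIA among these lines.

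BIRC3 was highest in SW948 (26.4 CPM) and lowest in SW48 (3.45), with HT55 (15.4), HCT15 (12.1) and DLD1 (10.1) between them and RKO at 6.82. SW948 and HT55 (adjusted p = 0.000849), DLD1 and RKO (0.0127), and RKO and SW48 (0.000471) differed. Of the members counted in every non-LRC library, ICAM1 spanned the widest range, 75.9-fold, from HCT15 (114 ± 11.8 CPM) and RKO (89.2 ± 5.13) through DLD1 (29.9), SW48 (12.7) and HT55 (12.4) to SW948 (1.5). All of these neighbors differed except SW48 and HT55, and the smallest gap among those that did was between HCT15 and RKO (adjusted p = 0.00473). RELB was the most even member, with no neighbors that differed and a 2.03-fold ratio between SW948 (26.6) and DLD1 (13.1, adjusted p = 3.36e-06). Per kilobase of exon, NFKBIA had group means of 6.99 to 25.5 RPKM in the non-LRCs of the 6 lines and ICAM1 of 0.435 to 33, while the largest mean of a chemokine was 2.73 RPKM, of CCL20 in SW948.

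**Figure D4:**
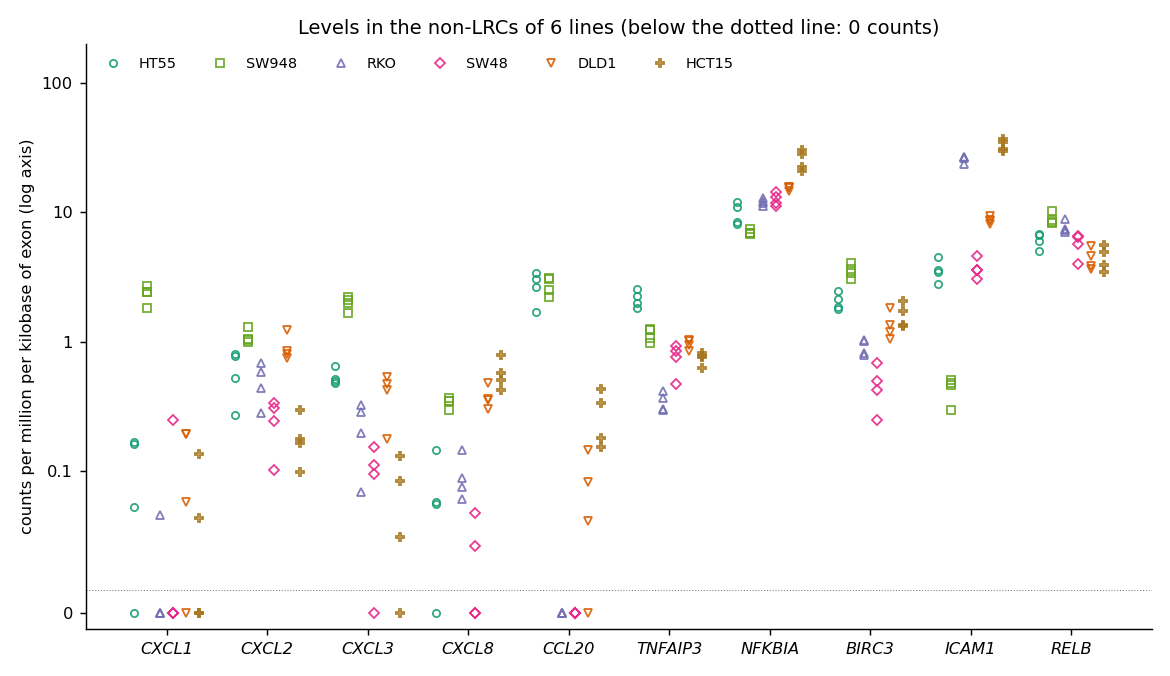
RPKM (CPM per kilobase of exon) of the 10 members in the non-LRCs of each line on a log axis, each point 1 library, with libraries at 0 counts drawn below the dotted line. ICAM1 spanned the widest range of the members counted in every library, and CCL20 was at 0 counts in all RKO and SW48 non-LRCs.

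The other genes of the pathway were taken from lists of roles. Of 97 listed genes, 77 were tested across the 6 lines, and 20 were higher and 5 lower in LRCs, with a median log2 fold change of 0.09 (12.2% of all genes were higher and 10.7% lower). In the non-LRCs alone 74 of the 77 passed the filter on low counts, so the others were tested only because the LRCs were counted too. Without the doubted library of the SW948-LRCs, 22 of the 77 were higher and 5 lower. The genes named from these lists kept their calls and directions there. Of the 4 other subunits, NFKB2, which encodes the partner of RELB, was higher (0.23, adjusted p = 0.00851), as was RELA (0.10, adjusted p = 0.0221), and NFKB1 was lower (-0.20, adjusted p = 0.000821). Of 10 other inhibitors and regulators, 3 were higher and none lower. They were CYLD, a deubiquitinase that opposes the pathway (0.37, adjusted p = 6.96e-07), TNIP1, which binds A20 (0.14, adjusted p = 0.00743), and NFKBIB (0.22, adjusted p = 0.0385). CYLD was at 47.0 ± 3.43 CPM in HCT15-LRCs and 30.6 ± 2.16 in HCT15 non-LRCs (SD, n = 4 each).

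Of 17 kinases and adaptors, 3 were higher and 3 lower, and none of the 3 with the smallest p-values moved by more than 0.15 (TAB2, 0.13, TAB1, -0.15, and IRAK1, -0.12). Ligands were mostly at the edge of detection. LTA, which encodes lymphotoxin alpha, was higher in LRCs (2.91 ± 0.49, adjusted p = 2.73e-05), with 0.051 to 1.48 CPM in SW948-LRCs against at most 0.0637 CPM in SW948 non-LRCs. IL1A was also higher (0.89, adjusted p = 0.0146), and these were the 2 called of 6 tested ligands. LTA had 209 counts over all 64 libraries. In the non-LRCs alone 5 of the 6 ligands passed the filter, so not all would have been tested without the LRCs. Of 15 receptors 1 was higher, TLR1 (0.64, adjusted p = 0.0321), and CCR6, the receptor of CCL20, was at 0.44 (adjusted p = 0.0926). Of 15 other targets, 8 were higher and 1 lower, among them the survival gene BCL2L1 (0.30, adjusted p = 0.000248), the complement gene C3 (1.09, adjusted p = 0.000609) and the TNF receptor family gene TNFRSF9 (1.55, adjusted p = 0.00074). In the non-LRCs alone 13 of these 15 targets passed the filter, and over all libraries C3 had 521 counts and TNFRSF9 had 321. Of 9 other chemokines and cytokines, only IL23A passed (0.48, adjusted p = 0.0452). In RKO alone, 16 of 57 tested genes of these lists were higher and 9 lower, where 20.4% of all genes were higher and 21% lower, and in DLD1 4 of 64 were higher and 1 lower (6.67% of all genes higher and 7.89% lower).

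Over the 48 sorted libraries, with the mean of each line subtracted, TNFAIP3 followed the mean z-score of the 10 members most closely (Pearson's r = 0.86), ahead of BIRC3 (0.70), CXCL8 (0.69), ICAM1 (0.65) and RELB (0.61). CXCL1 (0.48), CXCL3 (0.46), CCL20 (0.34), NFKBIA (0.27) and CXCL2 (0.04) followed it less. The genes outside the list that were most like it were RIOK3 (0.85), CYLD (0.83), GOLGA5, ZBTB43 and SDC4 (0.81 each). All of these values share the same libraries and depths, and members are part of the mean they are compared with. Over the 6 line means of non-LRCs, BIRC3 was most like the mean of the members (0.98), and NFKBIA (-0.43) and ICAM1 (-0.53) went the other way. The non-member genes most like that mean, MBOAT1, THOC7, FBXO48, IL6ST-DT and PRDX5, had an r of 0.99 over only 6 points.

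The controls served to separate effects of the dye and of the culture from those of label retention, and 6 members were tested in them. CXCL1, CXCL2, CXCL3 and CCL20 were under the filter, and CCL20 had 3 counts in all 16 libraries. The profiles of the controls were closer to HCT15 than to DLD1. In ICAM1 the controls had 60.4 to 101 CPM, between the sorted DLD1 libraries (27.8 to 46.5) and the HCT15 libraries (102 to 158). In BIRC3 the later controls had means of 9.57 CPM without and 11.5 CPM with the dye. The sorted non-LRCs had 10.1 CPM of it in DLD1 and 12.1 CPM in HCT15. The part of the line, the day and the sorting in these levels was not tested. Replicates 1 and 2 lay above replicates 3 and 4 in RELB in all 4 control groups. The share of reads outside genes was 8.96% to 14.8% on day 1 and 5.19% to 8.35% on the later day. Its part in the results of time was not tested.

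In the unlabeled controls, NFKBIA and ICAM1 were higher on the later day than on day 1 and RELB was lower (12.4% of all genes were higher and 13.1% lower). NFKBIA rose from 58.6, 59.3, 53.8 and 70.5 CPM to 93.1, 78.4, 77.2 and 79.2 CPM, without overlap (0.43 ± 0.14, adjusted p = 0.0334). ICAM1 went from 60.4, 68.4, 64.3 and 86.8 CPM to 91.0, 81.0, 101 and 95.6 CPM, with overlap through replicate 4 of day 1 (0.39 ± 0.12, adjusted p = 0.0243). RELB fell from 20.1, 20.4, 11.5 and 8.3 CPM to 8.52, 9.06, 7.92 and 8.45 CPM, again with overlap through that library (-0.83 ± 0.26, adjusted p = 0.031). Each of these 3 calls was lost without replicate 1, 2 or 3 of every group, with adjusted p-values of 0.155 to 0.267 for NFKBIA, 0.122 to 0.226 for ICAM1 and 0.101 to 0.224 for RELB. TNFAIP3 had 11.3, 11.9, 5.49 and 4.71 CPM on day 1 and 4.33, 4.04, 4.53 and 3.15 CPM later, which did not overlap (-1.06 ± 0.41, adjusted p = 0.0659). NFKBIA was thus the 1 member without overlap that was higher (8.13% of genes) and TNFAIP3 the 1 that was lower (6.21% of genes).

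Without the library labeled replicate 4 of the unlabeled day 1 controls, TNFAIP3 was also called lower (-1.32, adjusted p = 0.0166), and RELB (-1.10, adjusted p = 0.00125), NFKBIA (0.45, adjusted p = 0.0148) and ICAM1 (0.45, adjusted p = 0.00184) were called in the same directions as with it. In that setting 19.2% of all genes were higher and 22.9% lower. Within replicates 1 and 2, RELB was at -1.31 (adjusted p = 1.16e-05), and within replicates 3 and 4 it was at -0.30 (0.454). For TNFAIP3 these values were -1.58 (1.92e-05) and -0.44 (0.429), and replicates 3 and 4 include the doubted library.

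In the CFSE-labeled controls, TNFAIP3, BIRC3 and RELB were lower on the later day than on day 1 and no member was higher (19.1% of all genes were lower and 20.2% higher). TNFAIP3 fell from 30.7, 27.1, 8.57 and 8.18 CPM to 4.89, 5.51, 4.91 and 3.91 CPM (-2.0 ± 0.41, adjusted p = 0.0016). BIRC3 fell from 26.5, 22.8, 17.3 and 18.8 CPM to 14.0, 13.5, 10.1 and 8.42 CPM (-0.94 ± 0.19, adjusted p = 0.00155). RELB fell from 30.0, 31.1, 20.4 and 20.6 CPM to 17.1, 17.1, 10.7 and 10.9 CPM (-0.92 ± 0.26, adjusted p = 0.00994). None of the 3 overlapped between the days, which held for 16.7% of genes in that direction and 24.5% in the other, and replicates 1 and 2 were the highest of each group in TNFAIP3 on day 1. Within replicates 1 and 2 and within 3 and 4, TNFAIP3 was at -2.55 (adjusted p = 3.47e-07) and -1.01 (0.0379), BIRC3 at -0.92 and -1.05 and RELB at -0.92 and -1.02. CXCL8 went from 9.46, 9.58, 1.56 and 0.828 CPM to 3.31, 3.98, 0.732 and 1.08 CPM, which overlapped (-1.30 ± 0.73, adjusted p = 0.169).

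On day 1, the CFSE-labeled controls were higher than the unlabeled controls in BIRC3, TNFAIP3 and RELB, and no member was lower (9.73% of all genes were higher and 12% lower). BIRC3 was at 26.5, 22.8, 17.3 and 18.8 CPM with the dye and at 7.73, 9.9, 9.94 and 8.99 CPM without it (1.25 ± 0.19, adjusted p = 0.000913), and it was the 1 member whose groups did not overlap (10.5% of genes). TNFAIP3 was at 1.20 ± 0.39 (adjusted p = 0.0379) and RELB at 0.79 ± 0.25 (adjusted p = 0.0347), each higher in 4 of 4 same-numbered pairs. Without replicate 1, 2 or 3 of every group, TNFAIP3 was at 1.03, 1.19 and 1.24 (adjusted p = 0.168, 0.149 and 0.066) and RELB at 0.88, 0.87 and 0.74 (0.0911, 0.101 and 0.11), so that the calls were lost and the direction was kept. Without the doubted unlabeled library alone, TNFAIP3 was at 0.95 (adjusted p = 0.103) and RELB at 0.55 (0.0947), BIRC3 was called again (1.20, adjusted p = 0.00255) and ICAM1 was called as well (0.35, adjusted p = 0.0231), where 7.39% of all genes were higher. CXCL8 had 9.46, 9.58, 1.56 and 0.828 CPM with the dye and 2.19, 1.62, 0.818 and 0.264 CPM without it. It was higher in 4 of 4 pairs (2.16 ± 0.77, adjusted p = 0.0522), with 2.27 within replicates 1 and 2 and 1.16 within 3 and 4. With replicates 1 and 2 against 3 and 4 as a block, CXCL8 was called (1.93, adjusted p = 0.00641), as it was without a filter on low counts (2.10, adjusted p = 0.00748) and without replicate 4 of every group (2.19, adjusted p = 0.0354).

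On the later day no member passed the test of the dye (3.11% of genes were higher and 2.03% lower by edgeR's quasi-likelihood test). Of the members, 2 had an unadjusted p under 0.05 (3537 of 14518 genes), and DESeq2 called 1 (1521 genes). RELB was above the unlabeled controls in every library (17.1, 17.1, 10.7 and 10.9 CPM against 8.52, 9.06, 7.92 and 8.45 CPM, 0.70 ± 0.26, adjusted p = 0.112). NFKBIA was below them in every library (55.6, 66.4, 58.3 and 61 CPM against 93.1, 78.4, 77.2 and 79.2 CPM, -0.45 ± 0.14, adjusted p = 0.0653). Of all genes, 9.29% did not overlap with the dye higher and 10.3% with it lower. Leaving out the doubted day 1 library, which takes no part in these means but in the shared estimate of the spread, gave adjusted p-values of 0.0363 for RELB and 0.0277 for NFKBIA, with 7.09% of all genes then higher and 6.22% lower. No member passed the interaction test of whether the change with time differed between CFSE-labeled and unlabeled controls (0.999% of genes passed). In it, 2 members had an unadjusted p under 0.05 (2474 of 14518 genes), and DESeq2 called 1 (615 genes). The closest was BIRC3 (-1.0 ± 0.27, adjusted p = 0.0785). LRCs were sorted as the cells with the most dye, and the part of the dye in the results of LRCs was not tested beyond these controls.

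**Figure D5:**
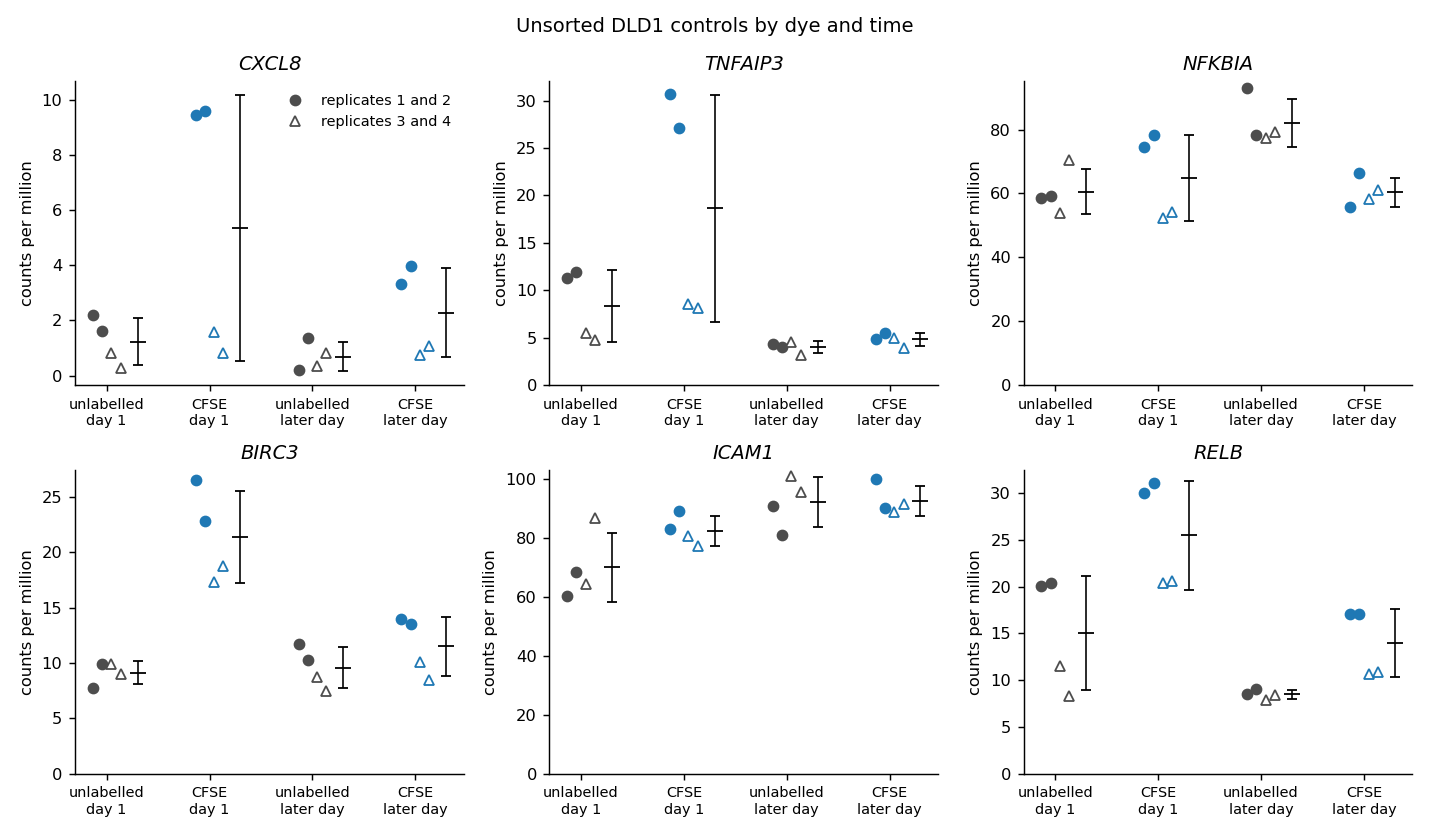
CPM of the 6 members tested in the controls labeled DLD1, by dye and day, with circles for replicates 1 and 2, triangles for replicates 3 and 4, and bars for the mean ± SD of 4 libraries. TNFAIP3 on day 1 with the dye was at 30.7 and 27.1 CPM in replicates 1 and 2 and at 8.57 and 8.18 CPM in replicates 3 and 4, all above the later day.

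Of the other genes of the pathway in the controls, 66 were tested. With time, 10 were higher and 8 lower without the dye (12.4% and 13.1% of all genes), and 10 were higher and 21 lower with it (20.2% and 19.1%). On day 1, 15 were higher and 5 lower with the dye (9.73% and 12% of all genes), with a median log2 difference of 0.24, and on the later day 0 were higher and 1 lower (3.11% and 2.03%). Without the doubted unlabeled library of day 1, the counts were 14 higher and 19 lower with time without the dye (19.2% and 22.9% of all genes), 12 and 23 with it (21.5% and 22.2%), 11 and 3 for the dye on day 1 (7.39% and 10.6%), and 6 and 3 on the later day (7.09% and 6.22%). Without the dye, NFKB2 (-0.81, adjusted p = 0.0134), the kinase gene MAP3K14, which acts upstream of p52 and RELB (-1.61, adjusted p = 0.012), the nuclear IκB protein gene NFKBID (-1.64, adjusted p = 0.00681) and the cytokine gene LIF (-2.02, adjusted p = 0.00549) were lower on the later day. TNIP1 (0.59, adjusted p = 0.0168), MYD88 (0.47, adjusted p = 0.0127), IL18 (0.73, adjusted p = 0.0412) and TNFSF10 (1.52, adjusted p = 0.0461) were higher. These 8 genes kept their calls and directions without that library.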

How the data were processed

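The deposited files held HTSeq summary lines and raw read counts per Ensembl gene, which the authors made from 50-bp single-end reads mapped to hg19. The submitters' processing notes name TopHat, HTSeq and DESeq, and their versions and the strand setting of the counting are not given in the sources used here. The 5 summary lines that name no gene were left out of library sizes and tests, and reads outside genes made up 5.19% to 14.8% of a library. Gene positions, exon lengths and symbols came from GENCODE release 44 on GRCh37, and RPKM was computed here as CPM per kilobase of exon. CPM was computed here from the counts with TMM factors over all 64 libraries.

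Groups came from the sample labels. Counts were tested with edgeR 4.0.16 in R 4.3.3 (quasi-likelihood F test, TMM) over genes that reached 10 counts in 4 or more samples of the fit, with Benjamini-Hochberg adjustment over all tested genes at 0.05. The SE of a log2 fold change is its size divided by the square root of F. LRCs were compared with non-LRCs across the 6 lines with line as covariate, in each line alone, and for a difference between lines, the non-LRCs of the lines were compared with each other, and the 4 control groups were fitted together. The scripts were tested on simulated counts. The members, the role lists and the tests were chosen with earlier results of these data known. The text names the members, up to 3 genes of each role list with the smallest p across the lines and with time in the unlabeled controls, and the genes most like the members. No pair of libraries held identical counts. Pairing by replicate number was accepted where the correlation of deviations from the group means was over 0.1 in every pair. This held for HT55 (0.141 to 0.387), SW48 (0.123 to 0.449), DLD1 (0.151 to 0.319), HCT15 (0.232 to 0.418) and the CFSE-labeled controls of both days (0.12 to 0.232). In DLD1, HCT15 and these controls it cannot be told from a split of replicates 1 and 2 against 3 and 4. In these controls the mean was 0.18 for the same number and 0.176 for the other number on the same side of that split. Alternatives were DESeq2 1.42.0, its size factors in edgeR, other count filters, the replicate block, 1 fit of all 48 sorted samples, and leaving out a replicate number or RKO. Chosen after the data were seen were a block of replicates 1 and 2 against 3 and 4, replicates 1 and 2 or 3 and 4 alone in the controls, and leaving out the 2 libraries that resembled another group. Counting error alone is covered by the limits given for counts of 0.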

Additional observations from a re-analysis of the deposited data

Results flagged for a closer look

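The effect of label retention differed between the lines for CXCL8 (adjusted p = 0.0032) and ICAM1 (adjusted p = 0.00458) by edgeR's interaction test, and the values by line stand in the report. In 160 groups of 4 replicates, each member was checked for a highest or lowest library that stood apart from the other 3 by Dixon's ratio. For values with a normal spread, chance gives this in about 1 of 20 groups. Where the other 3 libraries are at 0, the ratio is 1 whatever the count, so such a group is always found. Many of the groups found rest on single counts. CXCL1 was at 0.113 CPM (2 counts) in replicate 3 of the later unlabeled controls, 0.0624 CPM (1 count) in replicate 4 of the RKO non-LRCs and 0.338 CPM (5 counts) in replicate 2 of the SW48 non-LRCs, with the other libraries of each group at 0. CCL20 had 1 count each in replicate 2 of the later CFSE-labeled controls (0.0613 CPM), replicate 4 of the unlabeled day 1 controls (0.0529 CPM), replicate 2 of the later unlabeled controls (0.0652 CPM) and replicate 3 of the SW48-LRCs (0.0901 CPM).

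Other libraries stood apart at higher counts. CCL20 was at 3.45 CPM in replicate 2 of the HT55-LRCs, against a median of 7.24 in the other 3. BIRC3 was at 11.6 CPM in replicate 2 of the SW48-LRCs (median of the others 5.47). NFKBIA was at 93.1 CPM in replicate 1 of the later unlabeled controls (78.4) and at 25.1 CPM in replicate 3 of the SW948 non-LRCs (23.2). ICAM1 was at 81.5 CPM in replicate 3 of the RKO non-LRCs (91.8). CXCL2 was at 1.8 CPM in replicate 3 of the SW948 non-LRCs, and CXCL3 at 1.45 CPM in replicate 2 of the DLD1-LRCs.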

How the results depend on the processing

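Across the 6 lines 5 members were called, and 4 to 6 when a replicate number or the doubted library of the SW948-LRCs was left out, with CCL20 added without replicate 4 (0.53, adjusted p = 0.0449). No member called in a comparison was called there in the other direction under an alternative. All values below count members called. Calls over all genes changed with the setting too and are not given for most settings, so a rise in members called cannot be told from a general rise. With DESeq2 there were 1 in SW948 (245 genes against 0 in the main test) and 5 in HCT15 (528 against 137). There were 5 for the difference between lines (3369 against 2380), and 1 each for the dye on the later day (1521 against 745) and for the difference of time between dye groups (615 against 145). Without a filter on low counts there were 4 each in SW948, in HCT15 and for the difference between lines, and with at least 10 counts in every sample there were 1 for the difference between lines, 1 for the dye on the later day and 5 for levels between lines, as only members with enough counts were then tested. One fit of all 48 sorted samples gave 2 in SW948, 2 in SW48, 1 in DLD1, and 3 higher and 1 lower in RKO. The lower one, CXCL2 (-1.10, adjusted p = 0.037), and CXCL2 with time with the dye when no filter was used (-2.18, adjusted p = 0.0193) had been under the filter. With the replicate block there were 5 in HCT15, 2 in SW48, 2 in SW948, 6 for the difference between lines, 2 for the dye on the later day and 1 for the difference of time. The block of replicates 1 and 2 against 3 and 4 gave 5 in HCT15, 5 for the difference between lines, 2 for the dye on the later day and 1 for the difference of time. Replicates 1 and 2 alone gave 5 for time without and 5 for time with the dye, 6 for the dye on day 1, 3 for the dye on the later day and 3 for the difference of time, and replicates 3 and 4 alone gave 0 for time without the dye. Leaving out a replicate number or a doubted library gave 0 to 2 in HT55, 0 to 5 in SW948, 2 to 3 in RKO, 1 to 2 in DLD1, 0 to 0 in HCT15, 1 to 4 for the difference between lines, 9 to 9 for levels, 0 to 4 for time without the dye, 3 to 3 with it, 1 to 5 for the dye on day 1, 0 to 2 on the later day and 0 to 2 for the difference of time. Apart from the fewer genes tested, the cause of these changes was not tested.

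Signs of log2 fold changes differed in 32 of 1263 values of single members over all alternatives, none of them past the threshold. NFKBIA in HCT15 was at 0.00 with the replicate block and at 0.00 with the block of replicates 1 and 2 against 3 and 4. Within replicates 3 and 4, CXCL8 (0.07) and BIRC3 (-0.25) with time without the dye, NFKBIA with time with the dye (0.07) and NFKBIA with the dye on day 1 (-0.18) changed sign. Within replicates 1 and 2, ICAM1 with the dye on the later day (0.14) and RELB for the difference of time (0.39) did so. BIRC3 with time without the dye was at -0.00 with at least 10 counts in every sample, and ICAM1 with the dye on the later day was at 0.02 with no filter. Leaving out a replicate number or a doubted library gave ranges of -0.15 to 0.17 for BIRC3 and -0.05 to 0.15 for ICAM1 in HT55, -0.19 to 0.02 for CXCL2 in SW948, -0.01 to 0.13 for RELB in RKO, -0.09 to 0.02 for NFKBIA and -0.07 to 0.07 for RELB in SW48, -0.06 to 0.26 for CXCL3 and -0.02 to 0.29 for BIRC3 in DLD1, and -0.05 to 0.03 for NFKBIA in HCT15. In the controls they were -0.16 to 0.15 for BIRC3 with time without the dye, -0.07 to 0.07 for ICAM1 with the dye on the later day and -0.30 to 0.17 for RELB in the difference of time. The low counts of the chemokines limit what could be tested, since with 499 to 1453 counts in all 64 libraries most groups held too few to pass the filter.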

Other observations

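Among the genes of the pathway outside the 10 members, LTA and CYLD were followed through the controls. LTA, a ligand of the TNF receptors, was at 0.195 to 1.66 CPM in the CFSE-labeled controls of day 1 and at 0.0523 to 0.18 CPM on the later day (log2 difference of -3.22, adjusted p = 0.0238 by edgeR's quasi-likelihood test). In the unlabeled controls it had 0 to 1.12 CPM on day 1 and 0 to 0.126 CPM later (-3.74, adjusted p = 0.052, and -4.23, adjusted p = 0.00986, without the doubted unlabeled library of day 1). No later control reached the 10 counts of the filter, so LTA was tested in the controls only through day 1, where it was high. In the sorted lines it was at 0.27 to 1.19 CPM in SW48-LRCs and at most 0.353 CPM in SW48 non-LRCs, and no read of it was counted in RKO. CYLD, which removes ubiquitin chains from adaptors of the pathway, was at 53.7 ± 15.7 CPM in the CFSE-labeled and 35.6 ± 2.37 CPM in the unlabeled controls of day 1 (SD, n = 4 each; 0.62, adjusted p = 0.0159 by edgeR's quasi-likelihood test, and 0.54, adjusted p = 0.042, without that library). With the dye it was lower on the later day (-0.57, adjusted p = 0.0131), at 37.2 ± 3.63 CPM.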
